A study of Mus musculus with 20 samples.

Results

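Transcripts of 43 mouse genes that act in making ribosomes were followed in proximal colon organoids in the presence and absence of stem-cell niche factors. The genes were taken from a list of names and matched to the gene names of the array. All 43 had at least 1 probe, and 42 of them passed the filter on dim probes, out of 21424 genes tested. The other one, Utp18, had 1 probe, which stayed below the limit for well above background throughout. The genes fall into 6 roles: box C/D small nucleolar ribonucleoproteins (3 genes), box H/ACA small nucleolar ribonucleoproteins (4), abundant nucleolar proteins (4), RNA polymerase I and its helicase cofactor (4), processing of the small subunit (15, Utp18 among them) and processing of the large subunit (13). Total RNA was hybridised to 20 one-colour arrays, 1 for each culture and medium. Per the labels, crypts came from male mice of about 40 days of age that were heterozygous for a Cre-activable BrafV600E allele (Braf+/LSL), and 1 further culture was of wild-type organoids. EV organoids had received the lentiviral backbone alone, without Cre. BRAF organoids had received Cre through the same kind of virus, which switches on BrafV600E, and were profiled 5 months later. Selected organoids were BrafV600E organoids that had been selected to grow in base medium, which holds no stem-cell niche factors. Each of these types had 3 lines, and 48 h of culture in either base medium or the medium that the labels name ENSW gave 6 groups of 3 arrays. The wild-type culture gave 1 array per medium and entered no test. Line numbers recur across the types, and the labels do not say whether the lines came from separate mice, so that a p-value measures the spread between these lines only.

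Ribosomes are assembled in the nucleolus, where RNA polymerase I transcribes a long precursor RNA that is modified, cleaved and folded together with ribosomal proteins by a large set of factors that act only during assembly. Small nucleolar ribonucleoproteins guide the methylation and pseudouridylation of the precursor, the small-subunit processome folds and cuts the part that becomes the small subunit, and a separate series of complexes matures the large subunit. Dividing cells of the colon crypt make ribosomes at a high rate, and cells that stop dividing and differentiate make fewer. Many of these factors are known targets of the transcription factor Myc, which binds the E-box CACGTG together with its partner Max.

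Promoter sequences are shown because most members moved together and because that E-box can be read directly from them. Windows of 250 bases before to 50 after the start of each gene were taken from RefSeq (GRCm38.p6). CACGTG, which reads the same on both strands, was the only motif searched. At least 1 window was on hand for 38 of the 43 members, and 8 of these 38 (21.1%) held CACGTG, against 8.09% of all 27025 genes with a window. Member windows were richer in CpG, with a median of 20 CpG against 7 in all windows, and among other genes whose windows held at least 15 CpG the share was 12.01%. The 8 matches are printed with the bases around them, 5′ to 3′ on the strand of the gene, with the motif in capitals.
Grwd1 chr7:45830740-45830767 - strand: gggccggagtcgCACGTGtgaaaccgga
Imp4 chr1:34439696-34439725 + strand: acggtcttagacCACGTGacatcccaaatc
Nop2 chr6:125131811-125131840 + strand: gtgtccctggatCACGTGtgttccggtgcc
Pes1 chr11:3963965-3963994 + strand: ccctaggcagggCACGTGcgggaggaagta
Tsr1 chr11:74898092-74898121 + strand: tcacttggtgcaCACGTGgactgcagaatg
Utp18 chr11:93885769-93885798 - strand: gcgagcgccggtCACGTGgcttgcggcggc
Utp20 chr10:88826765-88826789 - strand: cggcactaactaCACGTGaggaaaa
Wdr43 chr17:71616220-71616249 + strand: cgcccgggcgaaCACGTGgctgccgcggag
The match lies before the start in Imp4, Nop2 and Utp18, and after it, within the transcribed part, in Grwd1, Pes1, Tsr1, Utp20 and Wdr43. The Grwd1 and Utp20 stretches end where the window ends. A longer stretch directly upstream of the start is printed for Nop2, a methyltransferase of large-subunit RNA, to show the CpG-rich bases around a match.
Nop2 chr6:125131733-125131882 + strand: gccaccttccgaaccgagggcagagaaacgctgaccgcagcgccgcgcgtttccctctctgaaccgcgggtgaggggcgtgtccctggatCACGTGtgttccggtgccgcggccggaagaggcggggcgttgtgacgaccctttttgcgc
These matches are a description of the letters in the windows. The 7 measured members with a match differed between base and ENSW medium in EV organoids by a median of -1.42 (range -3.46 to -0.83, log2). The 30 with a window and no match differed by a median of -2.44 (range -3.71 to -1.24). The ranges overlapped, and the members with the smallest differences, Pes1 and Tsr1, were among those with the motif. These values depend on the probe used. Second probes gave -1.63 for Pes1 and -1.87 for Grwd1, where those used gave -0.83 and -3.46. A part of the motif in these differences was not tested.

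Between 59.6% and 65.2% of the spots of an array passed the scanner software's background test, and 0 were saturated. Replicate arrays of a group had correlations of 0.944 to 0.988 over the genes, which are not independent of one another. All 9 epithelial markers were well above background in each of the 6 groups. Of 11 mesenchymal markers, Col1a1, Pdgfra, Des, Dcn and Lum did not reach that level anywhere. In EV organoids 4 of the 11 reached it on all ENSW arrays and 3 on all base arrays, with summed linear levels of 0.466 to 0.946 and 2.24 to 7.05. Of 11 blood and endothelium markers on the array, 8 reached it on all arrays of each group. Their sums in EV organoids were 22.5 to 23.2 in ENSW and 43.5 to 65.6 in base medium. The source of these signals was not tested. Each culture's pair of arrays lay on 1 slide, so that the difference between media is within a slide, although ENSW and base arrays held different positions on it, and position and medium cannot be told apart. EV arrays shared no slide with BRAF or selected arrays, so slide and type cannot be told apart where EV is compared with either. Levels below are log2 values with the array's own 75th percentile set to 0 and serve to compare groups within a gene, not 1 gene with another. Each set of 3 values gives lines 1, 2 and 3 in that order, and where 2 sets are set against each other, ENSW medium comes first and base medium after it. A gene was called at an adjusted p under 0.05 (limma, Benjamini-Hochberg over all 21424 genes), and rose or fell is written of called genes only. Counts at an unadjusted p under 0.05 are not calls. They are given without the share of all genes at that limit, so they cannot be read as particular to the members.

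In EV organoids, all 42 measured members fell in base medium. The median difference was -2.38 on the log2 scale, which is 5.21-fold lower, against a median of 0.19 over all genes, and 18.7% of all genes fell. The largest falls were those of Rrp1b (-3.71 ± 0.49, SE), Polr1b (-3.48), Gar1 (-3.48), Grwd1 (-3.46), Nolc1 (-3.17), Wdr12 (-3.15), Ppan (-3.06) and Gnl3 (-2.97), and the smallest were those of Pes1 (-0.83 ± 0.28) and Tsr1 (-0.84 ± 0.17). In each of the 42 genes the 3 base arrays lay below the 3 ENSW arrays, as they did in 23.8% of all genes. The fall was seen in every EV culture, with medians of -1.91, -2.07 and -2.87 in lines 1, 2 and 3. The wild-type culture, which was in no test, had all 42 members lower in base medium with a median of -2.42. RNA was taken from whole organoids, so fewer cells with active ribosome synthesis and less RNA of these genes per cell cannot be told apart. Markers of dividing and differentiated cells moved with the fall. The summed linear level of 23 proliferation markers was 187 to 208 in EV arrays in ENSW medium and 9.22 to 22.6 in base medium, with 23 of 23 called lower, and that of 17 colonocyte markers was 106 to 435 and 1505 to 3080, with 14 of 17 called higher. Their part in the fall of the members was not tested.

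With the probes used, BRAF organoids had a smaller difference between media in 40 of the 42 members. The median was -0.93, against 0.06 over all genes, and 8 members fell, where 0.583% of all genes did: Nop56, Dkc1, Nop58, Nop14, Wdr43, Nop2, Tsr1 and Ebna1bp2, with differences of -1.33, -1.35, -1.26, -1.11, -1.01, -0.91, -0.84 and -0.81. None rose, 41 of 42 had an unadjusted p under 0.05, and in 37 the base arrays lay below the ENSW arrays, against 9.83% of all genes. Line medians were -0.65 in line 1, -1.27 in line 2 and -0.92 in line 3, and Nop10 in line 1 was the only member with a higher value in base medium in any BRAF line (0.10). The summed proliferation markers were 93.1 to 209 in ENSW and 53.4 to 112 in base medium (0 of 23 called). Their median difference between media was 0.15 in line 1, -1.53 in line 2 and -1.49 in line 3. The colonocyte markers summed to 57.9 to 72.7 and 197 to 560 (7 of 17 higher). The part of either marker set was not tested. Dkc1, Wdr43, Tsr1 and Ebna1bp2 missed the threshold with the slide as a fixed block (adjusted p up to 0.0552), and Dkc1 did with normexp background correction (-0.73, adjusted p 0.0505). With no filter on dim probes Dkc1, Wdr43 and Ebna1bp2 missed it (adjusted p up to 0.0681). Dkc1 and Wdr43 did with median centring (up to 0.0533), Dkc1 with quantile scaling (0.0580) and Wdr43 with the mean of probes (0.0621). The number of calls depended on how lines were treated. Same-numbered arrays of the 2 media deviated together, and with the line as a replicate block 17 members fell, while with the culture as a random block 40 did. It depended on single arrays as well. Without BRAF line 1 or 2 in ENSW medium, or line 2 or 3 in base medium, 0 members were called. Without BRAF line 1 in base medium 27 were called, and without EV line 3 in base medium 24. Without EV line 1, 2 or 3 in ENSW, EV line 1 in base, selected line 1, 2 or 3 in ENSW, selected line 3 in base or BRAF line 3 in ENSW, 5 were called. The share of all genes called is not given beside these counts, which show only how far the calls depended on the fit.

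Selected organoids had no member called in either direction between media, where 1 of all 21424 genes (0.00467%) was, and 0 members had an unadjusted p under 0.05. The median was -0.06, differences ran from -0.44 (Rrp1b) to 0.19 (Ddx21), and the 95% intervals of single members reached from -1.49 to 0.84. Medians of the 3 lines were 0.06, -0.29 and 0.12. All 42 members were lower in base medium in line 2, while 14 were in line 1 and 11 in line 3, so the lines did not move one way. The summed proliferation markers were 139 to 168 in ENSW medium and 150 to 232 in base medium in these organoids, and the colonocyte markers 38.4 to 55.2 and 39.0 to 53.2.

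**Figure D1:**
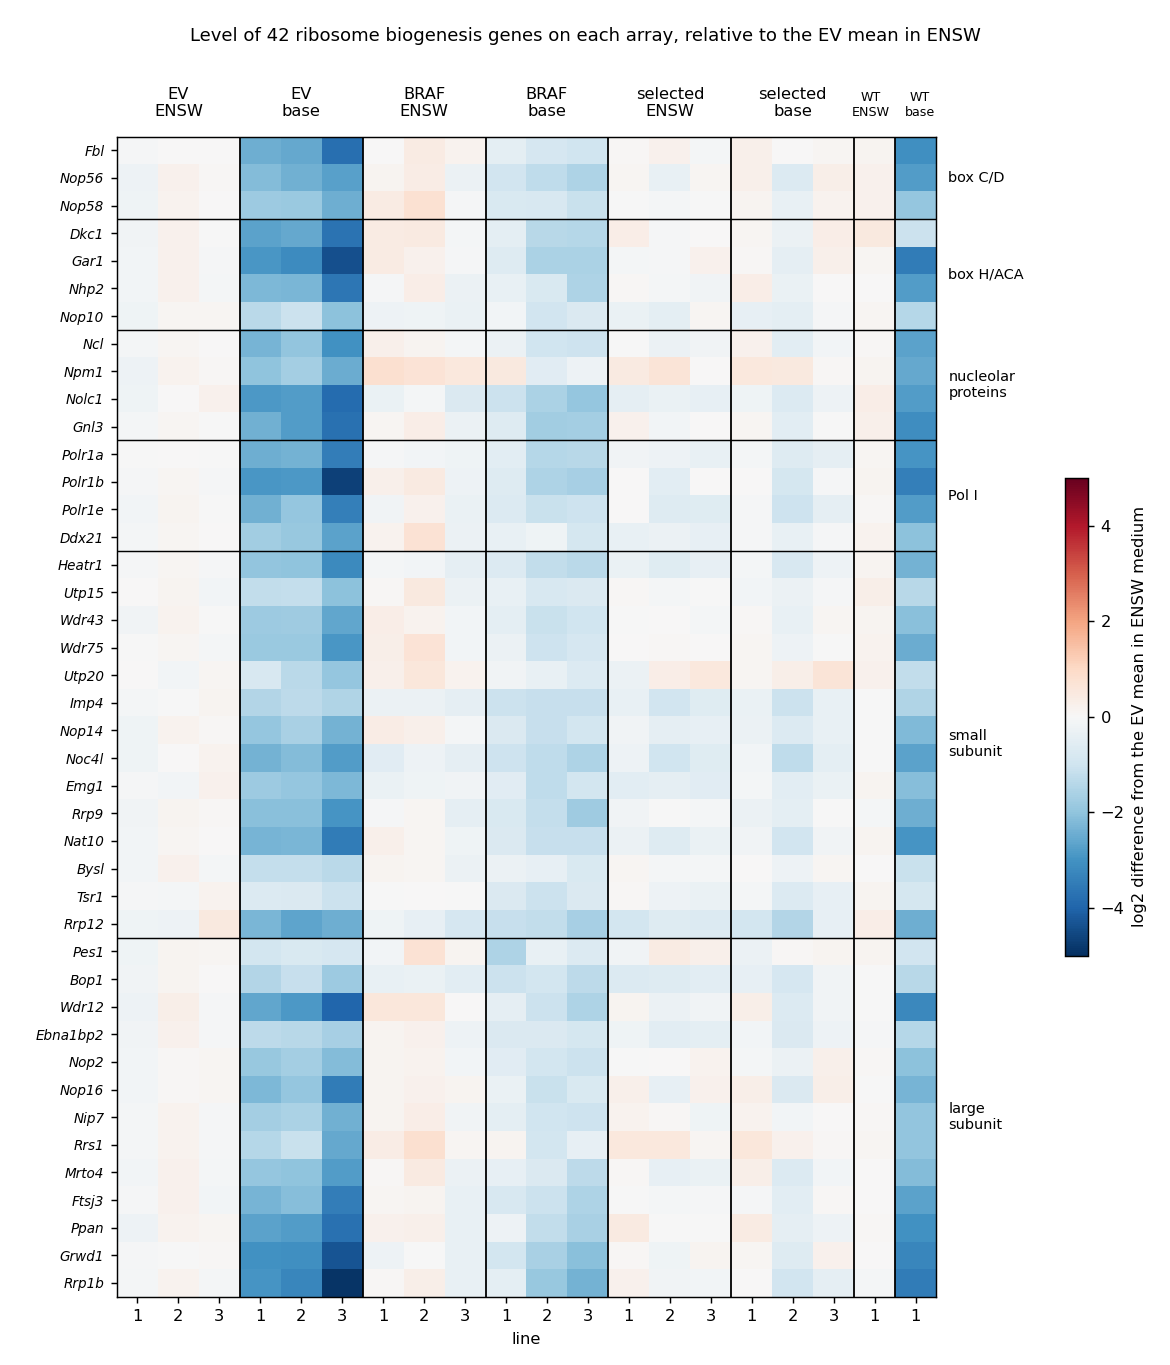
Colour shows the log2 level of each of the 42 measured members (rows, grouped by role) on each array (columns, line numbers below) minus the mean of the 3 EV arrays in ENSW medium, with blue for lower and red for higher. The columns of EV and wild-type organoids in base medium are blue throughout, with medians of -2.06, -1.95, -2.78 and -2.40, BRAF arrays in base medium are paler (-0.57, -1.10 and -1.12), and selected arrays in base medium are the nearest to 0 (0.01, -0.54 and -0.06).

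Box C/D ribonucleoproteins methylate ribosomal RNA. Fbl, the methyltransferase itself, lay at 2.88, 2.98 and 2.98 in ENSW medium and at 0.50, 0.38 and -0.81 in base medium in EV lines 1, 2 and 3. In BRAF lines it lay at 2.96, 3.37 and 3.12 in ENSW and at 2.45, 2.10 and 1.96 in base medium, and in selected lines at 3.00, 3.15 and 2.86 against 3.20, 2.96 and 3.05. Base arrays of EV organoids were the lowest of the 3 types, those of BRAF organoids lay between, and those of selected organoids overlapped the ENSW arrays. The Fbl probe lies at chr7:28964229-28964288 (mm9), and the fall in EV organoids was 7.58-fold (adjusted p 7.58e-06). Nop56, a scaffold protein of the complex, lay at 3.85, 4.30 and 4.14 in ENSW medium and at 1.94, 1.68 and 1.38 in base medium in EV organoids. BRAF organoids held Nop56 at 4.24, 4.48 and 3.79 against 3.15, 2.83 and 2.54, and selected organoids at 4.18, 3.71 and 4.19 against 4.35, 3.43 and 4.40. Its base arrays lay below its ENSW arrays in EV and BRAF organoids and not in selected ones. Nop58, the partner scaffold, lay at 2.52, 2.91 and 2.72 against 0.91, 0.85 and 0.26 in EV organoids. It lay at 3.13, 3.48 and 2.66 against 1.96, 1.92 and 1.61 in BRAF organoids and at 2.70, 2.62 and 2.69 against 2.85, 2.35 and 2.88 in selected organoids. Both scaffolds fell in EV organoids (Nop56 -2.43 ± 0.28, Nop58 -2.04 ± 0.23) and in BRAF organoids (Nop56 -1.33 ± 0.28, Nop58 -1.26 ± 0.23), while Fbl at -0.98 ± 0.27 in BRAF organoids did not pass the test (adjusted p 0.0791).

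Box H/ACA ribonucleoproteins convert uridines of ribosomal RNA to pseudouridine. Dkc1, the pseudouridine synthase, lay at -2.15, -1.77 and -1.99 in ENSW medium and at -4.64, -4.52 and -5.64 in base medium in EV organoids. It lay at -1.57, -1.51 and -2.08 against -2.46, -3.37 and -3.39 in BRAF organoids and at -1.66, -2.02 and -1.95 against -1.85, -2.26 and -1.64 in selected organoids. It was well above background on 17 of the 18 arrays, and its base arrays were below its ENSW arrays in EV and BRAF organoids. Gar1, a core protein of the same particle with its probe at chr3:129527855-129527914 (mm9), lay at 3.99, 4.33 and 4.08 in ENSW medium and at 1.23, 1.00 and -0.27 in base medium in EV organoids. BRAF organoids held it at 4.53, 4.36 and 4.07 against 3.49, 2.55 and 2.57, and selected organoids at 4.06, 4.07 and 4.35 against 4.19, 3.70 and 4.40. The EV arrays fell 11.2-fold (adjusted p 1.11e-05), and the 3 selected lines kept base values within the range of all ENSW arrays except for line 2. The other core proteins, Nhp2 (-2.73) and Nop10 (-1.49), fell in EV organoids too, and Nop10 had the smallest BRAF difference of all members (-0.34 ± 0.25, adjusted p 0.499).

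Among the abundant nucleolar proteins, Ncl (nucleolin, which binds the precursor RNA) lay at 4.90, 5.10 and 5.04 in ENSW medium and at 2.70, 3.04 and 1.97 in base medium in EV organoids. It lay at 5.25, 5.14 and 4.90 against 4.73, 4.03 and 3.96 in BRAF organoids and at 4.98, 4.73 and 4.83 against 5.23, 4.47 and 4.87 in selected organoids. BRAF base arrays were below BRAF ENSW arrays and above every EV base array. A second probe of Ncl gave -1.48 for the medium in EV organoids, where the one used gave -2.44. Npm1 (nucleophosmin, a chaperone of ribosome assembly) lay at 5.17, 5.61 and 5.50 in ENSW medium and at 3.40, 3.71 and 2.96 in base medium in EV organoids. In BRAF organoids it lay at 6.24, 6.09 and 5.95 against 5.91, 4.86 and 5.19, and in selected organoids at 5.87, 6.07 and 5.46 against 5.97, 5.93 and 5.48. Npm1 was the member with the largest excess of BRAF over EV organoids in ENSW medium, where its groups did not overlap, and that difference did not pass the test (0.67 ± 0.27, adjusted p 0.155). Nolc1, a chaperone of small nucleolar ribonucleoproteins, lay at 3.59, 3.83 and 4.03 in ENSW medium and at 0.97, 1.02 and -0.04 in base medium in EV organoids. It lay at 3.49, 3.73 and 3.1 against 2.75, 2.23 and 1.87 in BRAF organoids and at 3.38, 3.50 and 3.40 against 3.61, 3.13 and 3.55 in selected organoids. Its fall in EV organoids was 9.01-fold (adjusted p 6.98e-06), and the fall of Gnl3, the nucleolar GTP-binding protein nucleostemin, was 7.83-fold.

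RNA polymerase I makes the ribosomal RNA precursor. Polr1b, its second-largest subunit, with its probe at chr2:128951870-128951929 (mm9), lay at -0.16, 0.02 and -0.16 in ENSW medium and at -3.02, -2.97 and -4.76 in base medium in EV organoids. It lay at 0.16, 0.36 and -0.34 against -0.73, -1.65 and -1.76 in BRAF organoids and at -0.07, -0.61 and -0.10 against -0.07, -0.96 and -0.17 in selected organoids. EV line 3 in base medium was the lowest array, and the selected groups overlapped between media. Polr1b fell 11.2-fold in EV organoids (adjusted p 3.83e-05). The largest subunit Polr1a (-2.76), the subunit Polr1e (-2.59) and Ddx21, a helicase that couples the polymerase to RNA processing (-2.12), also fell. In BRAF organoids these 4 genes had differences of -1.44, -0.98, -0.84 and -0.69, in the same order, and 0 of 4 were called.

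Of the factors of the small subunit, 14 were measured, and all 14 fell in EV organoids, with a median of -2.03. Heatr1, which is part of the subcomplex that links transcription to processing, lay at 2.48, 2.65 and 2.46 in ENSW medium and at 0.55, 0.52 and -0.64 in base medium in EV organoids. It lay at 2.44, 2.40 and 2.08 against 1.84, 1.30 and 1.17 in BRAF organoids and at 2.18, 1.93 and 2.11 against 2.44, 1.71 and 2.27 in selected organoids. The EV base arrays lay below every BRAF and selected array. Utp20, a large scaffold protein of the processome, lay at -1.20, -1.36 and -1.12 in ENSW medium and at -2.04, -2.59 and -3.16 in base medium in EV organoids. It lay at -0.97, -0.64 and -1.03 against -1.40, -1.60 and -1.91 in BRAF organoids and at -1.53, -0.88 and -0.69 against -1.15, -0.92 and -0.58 in selected organoids. Its fall in EV organoids (-1.37 ± 0.27) was among the 4 smallest of the members.

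Rrp9, a protein of the small nucleolar ribonucleoprotein that guides the first cleavages, lay at 0.66, 0.98 and 0.89 in ENSW medium and at -1.25, -1.25 and -2.09 in base medium in EV organoids. It lay at 0.78, 0.93 and 0.38 against 0.07, -0.35 and -0.92 in BRAF organoids and at 0.68, 0.83 and 0.73 against 0.54, 0.35 and 0.83 in selected organoids. BRAF line 3 in base medium had the lowest value of the BRAF and selected arrays. Rrp12, which acts in the export of precursor subunits, lay at -1.65, -1.70 and -0.95 in ENSW medium and at -3.73, -4.06 and -3.87 in base medium in EV organoids. It lay at -1.65, -1.83 and -2.27 against -2.58, -2.66 and -3.09 in BRAF organoids and at -2.35, -2.06 and -2.11 against -2.33, -2.90 and -1.84 in selected organoids. Selected and BRAF arrays lay below the mean of the EV arrays in ENSW medium in both media. Tsr1, a GTPase-like factor of late small-subunit precursors, had a difference in BRAF organoids (-0.84 ± 0.17) as large as in EV organoids (-0.84 ± 0.17). The other small-subunit factors ran from -2.70 (Nat10, an RNA acetyltransferase) to -1.24 (Bysl) in EV organoids and from -1.11 (Nop14) to -0.47 (Bysl) in BRAF organoids.

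All 13 factors of the large subunit fell in EV organoids, with a median of -2.24. Pes1, Bop1 and Wdr12 form the PeBoW complex, and the 3 differed in size of fall. Wdr12 lay at 1.36, 1.90 and 1.55 in ENSW medium and at -1.01, -1.27 and -2.36 in base medium in EV organoids. It lay at 2.17, 2.15 and 1.62 against 1.15, 0.53 and 0.07 in BRAF organoids and at 1.74, 1.31 and 1.42 against 1.89, 0.91 and 1.44 in selected organoids. Its EV fall was 8.87-fold, with the EV base arrays below every BRAF and selected array. Bop1 lay at 2.49, 2.81 and 2.67 in ENSW medium and at 1.18, 1.49 and 0.83 in base medium in EV organoids. It lay at 2.28, 2.32 and 2.11 against 1.57, 1.76 and 1.34 in BRAF organoids and at 1.97, 2.03 and 2.12 against 2.23, 1.82 and 2.46 in selected organoids. Its EV fall was 2.81-fold, and both other types lay below EV organoids in ENSW medium. Pes1 lay at 0.51, 0.86 and 0.83 in ENSW medium and at -0.18, -0.03 and -0.09 in base medium in EV organoids. It lay at 0.61, 1.47 and 0.88 against -0.81, 0.36 and 0.05 in BRAF organoids and at 0.55, 1.15 and 0.97 against 0.44, 0.80 and 0.85 in selected organoids. BRAF line 1 in base medium was its lowest array. Its EV fall was 1.78-fold (adjusted p 0.0285), and the call was lost without EV line 1 in base (0.0729), line 2 in ENSW (0.0829), line 3 in ENSW (0.0799) or line 3 in base (0.0694). The probe used for Pes1 lies at chr11:3879948-3880007 (mm9), and a second one at chr11:3873303-3873362 gave -1.63 for the same comparison.

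Nop16, a nucleolar protein of early large-subunit precursors, lay at 0.74, 0.93 and 0.95 in ENSW medium and at -1.38, -1.07 and -2.64 in base medium in EV organoids. It lay at 1.03, 1.08 and 1.00 against 0.53, -0.25 and 0.11 in BRAF organoids and at 1.14, 0.47 and 1.09 against 1.16, 0.14 and 1.18 in selected organoids. Selected line 2 was the lowest selected line in both media. Ppan, a processing factor of the large-subunit RNA, lay at 2.43, 2.86 and 2.77 in ENSW medium and at 0.02, -0.10 and -1.04 in base medium in EV organoids. It lay at 2.88, 2.94 and 2.29 against 2.42, 1.44 and 1.07 in BRAF organoids and at 3.13, 2.66 and 2.66 against 3.08, 2.24 and 2.42 in selected organoids. BRAF line 1 in base medium reached the range of its ENSW arrays, and lines 2 and 3 did not. Grwd1, a chaperone of a large-subunit protein with its probe at chr7:53080778-53080837 (mm9), lay at 0.77, 0.84 and 0.91 in ENSW medium and at -2.18, -2.22 and -3.47 in base medium in EV organoids. It lay at 0.59, 0.82 and 0.46 against -0.09, -0.78 and -1.25 in BRAF organoids and at 0.89, 0.64 and 0.96 against 0.93, 0.21 and 1.06 in selected organoids. Its EV fall was 11-fold (adjusted p 1.08e-05), and the EV, BRAF and selected base arrays formed 3 ranges that did not overlap. A second Grwd1 probe gave -1.87 for the medium in EV organoids, where the one used gave -3.46. In base medium it gave 0.84 for BRAF and 1.72 for selected against EV organoids, where the one used gave 1.92 and 3.36. Rrp1b, a nucleolar protein with its probe at chr17:32193829-32193888 (mm9), had the largest fall in EV organoids, 13.1-fold, and also the largest differences in BRAF (-1.57 ± 0.49, adjusted p 0.114) and selected organoids (-0.44 ± 0.49, adjusted p 1.00), of which neither passed the test. The remaining large-subunit factors ran from -2.64 (Ftsj3, an RNA methyltransferase) to -1.45 (Ebna1bp2) in EV organoids.

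**Figure D2:**
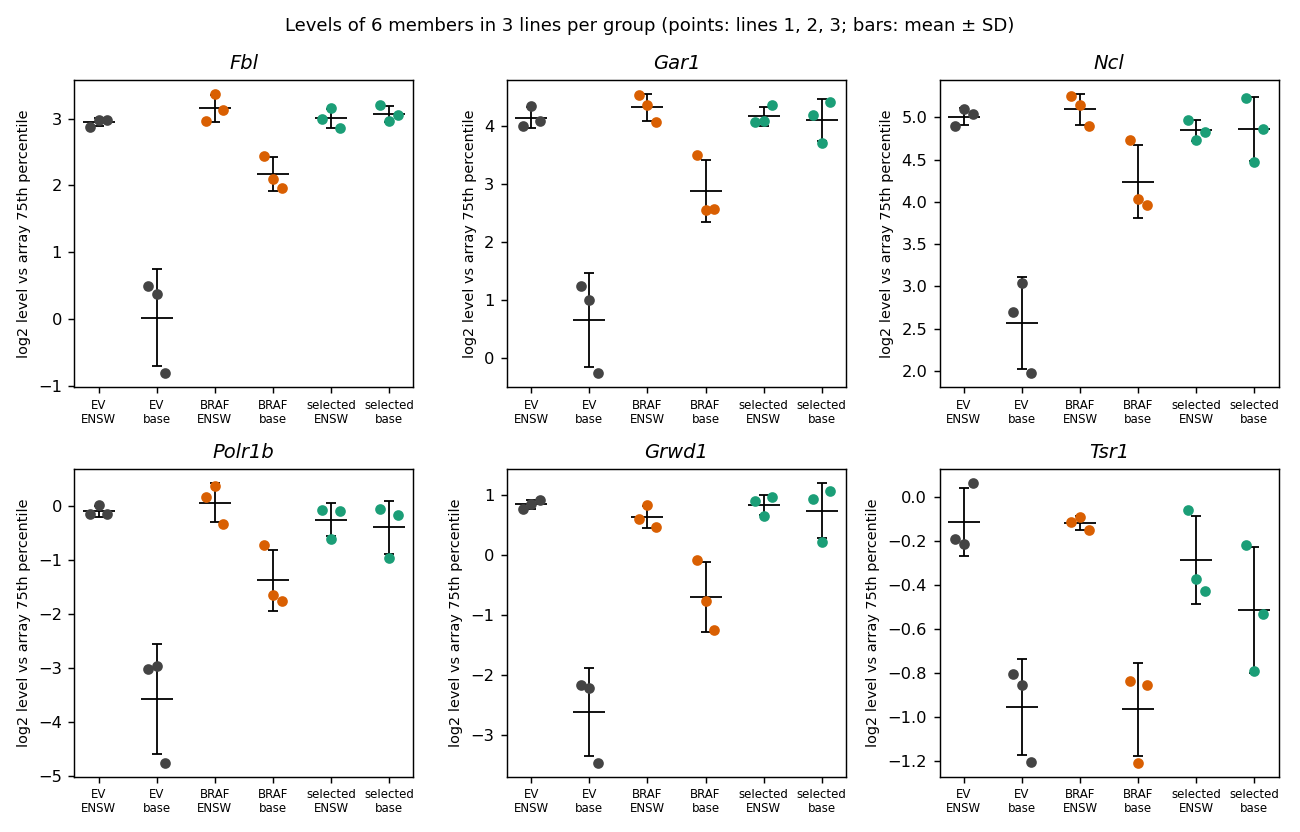
Each panel shows 1 member, with the log2 level relative to the array's 75th percentile on the vertical axis, which does not start at 0, the 6 groups on the horizontal axis, points for lines 1, 2 and 3, and bars for the mean ± SD. In Fbl, Gar1, Polr1b and Grwd1 the EV base arrays are lowest and the BRAF base arrays lie between them and the ENSW arrays, in Ncl BRAF line 1 in base medium (4.73) reaches the lowest ENSW array, and Tsr1 has the same mean difference of -0.84 in EV and BRAF organoids.

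**Figure D3:**
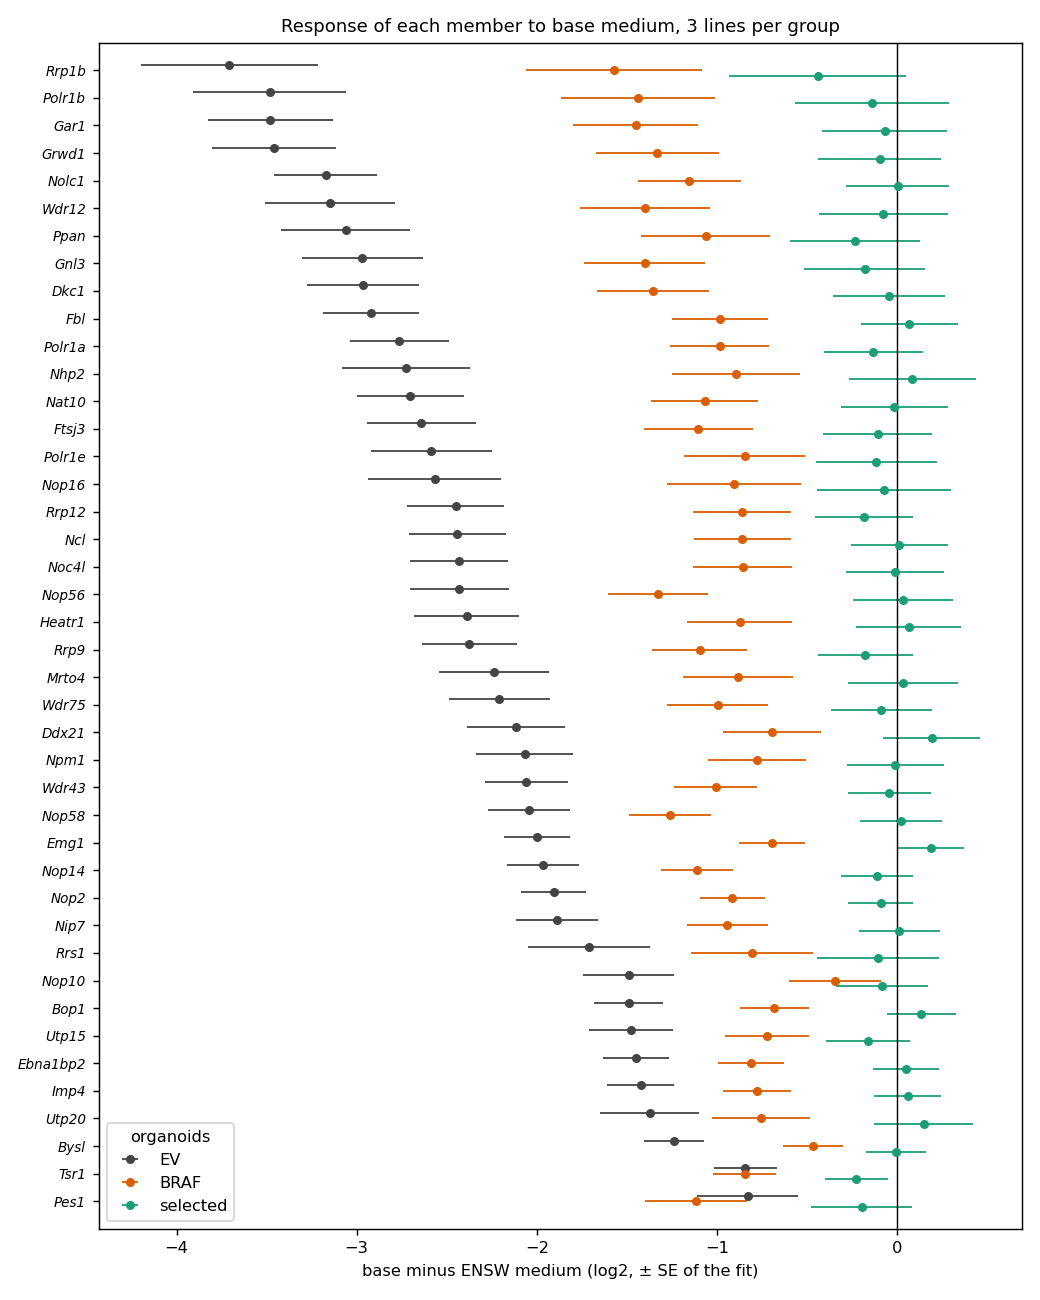
Points show the fitted difference of base minus ENSW medium (log2) with its SE for each of the 42 members in EV, BRAF and selected organoids, 3 lines each, ordered by the EV difference. EV points run from -3.71 to -0.83, BRAF points from -1.57 to -0.34 and selected points from -0.44 to 0.19.

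In base medium, where the types were compared directly, 38 of the 42 members were higher in BRAF than in EV organoids and 0 were lower, with a median of 1.38 (2.60-fold) against 0.03 over all genes, of which 17.8% were higher. The groups did not overlap in 39 members, against 22.3% of all genes. The largest differences were those of Gar1 (2.21 ± 0.35), Polr1b (2.20 ± 0.43), Fbl (2.15 ± 0.27), Rrp1b (2.13 ± 0.49), Wdr12 (2.13 ± 0.36), Ppan (2.02 ± 0.36), Npm1 (1.96 ± 0.27) and Grwd1 (1.92 ± 0.34). By role, all 3 box C/D, all 4 box H/ACA, all 4 nucleolar and all 4 polymerase genes were called, with 12 of 14 for the small and 11 of 13 for the large subunit. Imp4, a processome protein (0.30), Bop1 (0.39), Tsr1 (-0.01) and Pes1 (-0.03) were not called. The calls of Nop10, Utp15 and Utp20 were lost without EV line 3 or BRAF line 1 in base medium, with adjusted p up to 0.0876 for Utp20, and that of Ebna1bp2 without EV line 3 in base medium (0.0621). Bop1 was called without EV line 2 in base medium (0.0487). With normexp background correction Utp15 (0.33, adjusted p 0.188), Utp20 (0.42, 0.1002) and Rrp12 (0.44, 0.144) were not called. Pes1 was called higher, at 0.43, where the mean of its 2 probes was used. The proliferation markers moved the same way, with 22 of 23 higher in BRAF organoids and summed levels of 53.4 to 112 against 9.22 to 22.6, and the colonocyte markers moved the other way, with 13 of 17 lower and sums of 197 to 560 against 1505 to 3080. Their part in the difference of the members was not tested.

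Selected organoids were higher than EV organoids in base medium in all 42 members, where 25.0% of all genes were, with a median of 2.07 (4.19-fold) against 0.02 over all genes, and in each of the 42 the groups did not overlap (28.6% of all genes). The largest differences were those of Gar1 (3.44 ± 0.35), Grwd1 (3.36 ± 0.34), Rrp1b (3.24 ± 0.49), Polr1b (3.19 ± 0.43), Fbl (3.05 ± 0.27), Dkc1 (3.02 ± 0.31), Wdr12 (2.96 ± 0.36) and Ppan (2.96 ± 0.36). The medians by role ran from 1.69 for the small subunit to 2.88 for the box H/ACA proteins. Tsr1 was the smallest (0.44 ± 0.17) and lay at the threshold (adjusted p 0.049996). It missed it without any 1 of 15 of the 18 arrays, with adjusted p up to 0.209 without selected line 1 in base medium. The 3 arrays whose absence kept the call were selected line 1 in ENSW medium, selected line 2 in base medium and BRAF line 2 in base medium. Tsr1 also missed the threshold with normexp (adjusted p 0.121), the authors' values (0.0525), no filter (0.0766) and the mean of probes (0.0664). It did so too with the culture (0.0776) or the slide (0.0929) as a random block. Pes1 (0.80 ± 0.28, adjusted p 0.0302) missed the threshold without EV line 1, 2 or 3 or selected line 2 or 3 in base medium, with up to 0.0872. All 23 proliferation markers were higher and 15 of 17 colonocyte markers lower in selected organoids, with sums of 150 to 232 and 39.0 to 53.2 in base medium, and their part was not tested.

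Few members were called between types in ENSW medium. BRAF organoids had 0 members called against EV organoids (2 at an unadjusted p under 0.05), while 6.33% of all genes were called in either direction. The median was 0.06, and differences ran from -0.49 (Rrp12) to 0.67 (Npm1), with 95% intervals of single members reaching from -1.07 to 1.25. Selected organoids had 0 members higher and 2 lower than EV organoids, where 8.68% of all genes were higher and 5.12% lower. These were Imp4 (-0.66 ± 0.19, adjusted p 0.0341) and Bop1 (-0.62 ± 0.19, adjusted p 0.0470), and 6 members had an unadjusted p under 0.05. Imp4 lay at 2.05, 2.14 and 2.30 in EV organoids and at 1.77, 1.20 and 1.54 in selected organoids, so the groups did not overlap. The groups lay apart in 11 members, all of them lower in selected organoids, against 15.8% of all genes. Both calls rest on few arrays. None was left without EV line 1, 2 or 3 or selected line 2 or 3 in ENSW medium, and 1 was left without EV line 1 in base, selected line 1 in ENSW or base, or BRAF line 1, 2 or 3 in ENSW medium. Bop1 also missed the threshold without BRAF line 1 in base medium (adjusted p 0.0514).

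Selected and BRAF organoids both carry the activated allele and were compared with each other. In base medium 12 members were higher in selected organoids and 0 were lower, where 4.66% of all genes were higher, with a median of 0.72 (1.65-fold) against -0.03 over all genes. The 12 were Grwd1 (1.44 ± 0.34), Gar1 (1.23 ± 0.35), Nop56 (1.22 ± 0.28), Gnl3 (1.21 ± 0.34), Dkc1 (1.15 ± 0.31), Nolc1 (1.15 ± 0.29), Rrp9 (0.97 ± 0.26), Fbl (0.90 ± 0.27), Nip7, Nop58, Nop2 and Wdr43. All 42 members had a difference above 0, 32 had an unadjusted p under 0.05, and the groups did not overlap in 24, against 11.3% of all genes. By role, all 3 box C/D proteins were called, 2 of 4 box H/ACA proteins, 2 of 4 nucleolar proteins, 0 of 4 polymerase genes, 2 of 14 small-subunit and 3 of 13 large-subunit factors. Without selected line 1 in base medium 1 member was called, and without selected line 3, BRAF line 2 or BRAF line 3 in base medium 0 were. Selected line 3 and BRAF line 1 shared a slide, which sets 1 array against 1 array in each medium. On it 40 of 42 members were higher in the selected line in base medium, with a median of 0.53. In ENSW medium 6 of 42 were, with a median of -0.24. The share of all genes is not given beside these 2 counts. With the slide as a fixed block 2 members were called, and Nop2 was the only gene of the 12 among them. The others of the 12 had adjusted p up to 0.381. With the line as a replicate block 15 members were called, the 12 among them. Fbl, Gar1, Nolc1, Gnl3, Wdr43 and Rrp9 lost their calls once culture was treated as random (adjusted p up to 0.0968). Fbl, Gar1, Gnl3 and Wdr43 did so with no filter on dim probes (up to 0.0709). With the mean of probes Wdr43 and Nip7 did (up to 0.0682). Fbl and Wdr43 did with the slide as a random block (up to 0.0652), and Fbl with median centring (0.0509). Dkc1 was not called with normexp background correction (0.56, adjusted p 0.0666). Of the proliferation markers, 7 of 23 were higher in selected organoids, and 11 of 17 colonocyte markers were lower, and their part was not tested. In ENSW medium 0 members were called between selected and BRAF organoids (2 at an unadjusted p under 0.05, 0.607% of all genes called), with a median of -0.16 and differences from -0.56 (Ddx21) to 0.21 (Grwd1).

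The shift from ENSW to base medium was compared across types as a difference of differences. Against EV organoids, the response of BRAF organoids was higher, which here means less negative, in 11 members and lower in 0, where 2.80% of all genes had a higher response. The median was 1.39. The 6 with the smallest p were Fbl (1.94 ± 0.38), Emg1, an RNA methyltransferase (1.31 ± 0.26), Nolc1 (2.02 ± 0.40), Polr1a (1.78 ± 0.39), Grwd1 (2.13 ± 0.49) and Rrp12 (1.59 ± 0.38), with adjusted p from 0.0235 to 0.0436. The others were Ncl, Gar1, Noc4l, Ppan and Nat10, and 38 members had an unadjusted p under 0.05. With the probes used, Pes1 (-0.29) and Tsr1 (0.00) were the 2 members whose response was no less negative than in EV organoids. The second probe of Pes1 went the other way, with -0.64 between media in BRAF and -1.63 in EV organoids. This count moved with single arrays. It was 0 without EV line 2 or 3 in ENSW, BRAF line 1 or 3 in ENSW or BRAF line 1 in base medium, and 1 without EV line 1 in ENSW medium. It was 4 without EV line 3 in base, selected line 1, 2 or 3 in ENSW or BRAF line 2 in base medium, 5 without BRAF line 2 in ENSW, 6 without selected line 3 in base and 7 without selected line 1 in base medium. It was 27 without EV line 2 in base and 22 without BRAF line 3 in base medium. With the line as a replicate block it was 22, with the culture as a random block 38 and with the slide as a fixed block 0. It was 5 with median centring and 4 with no filter on dim probes. The share of all genes called in these fits is not given here. Rrp12 was not called with normexp background correction (0.54, adjusted p 0.323), nor Ncl with the mean of its 2 probes (0.83, adjusted p 0.197).

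The response of selected organoids was higher (less negative) than that of EV organoids in 40 members, where 13.8% of all genes had a higher response, with a median of 2.29. The 6 with the smallest p were Emg1 (2.19 ± 0.26), Fbl (2.99 ± 0.38), Nolc1 (3.18 ± 0.40), Nop2 (1.81 ± 0.26), Gar1 (3.41 ± 0.49) and Grwd1 (3.36 ± 0.49), with adjusted p from 0.000298 to 0.000580. Tsr1 (0.62 ± 0.25) and Pes1 (0.63 ± 0.40) were not called, and the call of Rrs1, which helps to bring a small ribonucleoprotein into the large subunit (1.60 ± 0.48), was lost without EV line 2 in ENSW, EV line 3 in base, selected line 1 in base or selected line 3 in ENSW medium (adjusted p up to 0.0606). Utp15 was not called with normexp background correction (0.46, adjusted p 0.204). Between selected and BRAF organoids the test called 0 members and 0 of all genes (0.00%). An unadjusted p under 0.05 was seen in 30 members, and the share of all genes at that limit is not given. The median was 0.91 and all 42 values were above 0, from 0.26 (Nop10) to 1.38 (Gar1). With the culture as a random block 6 members were called. Other genes were called in that fit too, and 42.1% of all genes called in it were higher. The share of all genes called is not given, so the 6 cannot be read as particular to the members. The comparisons against EV organoids share the EV arrays, and those of the 2 BRAF-bearing types share the BRAF or selected arrays, so they are not independent of one another.

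Other parts of the pathway were set beside the members in EV organoids, where 18.7% of all genes fell in base medium. Of all genes called in that comparison, 55.6% were higher. Of 98 other biogenesis factors, 80 fell and 4 rose in base medium, with a median of -1.26. The summed linear level of these factors, in which bright genes weigh most, was 758 to 805 in ENSW and 797 to 899 in base medium. The 4 with the smallest adjusted p were Wdr46 (-2.21), Rcl1 (-2.84), Wdr74 (-2.54) and Urb1 (-2.02), all of them nucleolar processing factors. The 4 that rose were Sbds (1.60) and Zfp622 (1.05), which act on large subunits in the cytoplasm, Noc3l (0.92) and the RNA exosome subunit Exosc2 (0.53). Of 77 cytosolic ribosomal protein genes, 75 fell and 0 rose, with a median of -1.27. Rps15a (-1.65), Rpl5 (-1.57), Rpl13a (-1.23) and Rpl8 (-1.68) had the smallest adjusted p. Ribosomal protein probes can bind transcripts of near-identical gene copies, so single values are uncertain. Of 11 further genes of the RNA polymerase I machinery, 6 fell and 0 rose, led by Cd3eap (-2.91), a polymerase subunit, and Rrn3 (-1.24), the initiation factor that recruits the polymerase. The summed level of the 12 such genes on the array was 77.8 to 90.4 in ENSW and 75.4 to 85.4 in base medium. Of 11 RNA polymerase III subunits, 4 fell and 0 rose, with a median of -0.46.

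In the Myc network, Myc itself fell in EV organoids in base medium (-2.13, adjusted p 0.000328), as did Mxd3 (-3.13), while Mxd1 (3.44), a repressor that competes for Max in differentiated cells, Max (1.86) and Mlx (0.88) rose. The other 5 of 10 measured genes were not called. Mki67, the proliferation marker, fell by 5.01 on the log2 scale. In BRAF organoids Myc differed between media by -0.85 and Mki67 by -0.87, and neither was called. In selected organoids the values were -0.65 and 0.38, also not called. In base medium Myc was higher than in EV organoids in both BRAF (1.87, adjusted p 0.00165) and selected organoids (1.91, adjusted p 0.000534), and between those 2 types it differed by 0.05 (adjusted p 0.955), with an SE of 0.36. The members had a median of 0.72 in that comparison, and a part of Myc in it was not tested. Mxd1 was lower (-2.76) and Mxd3 higher (2.50) in selected than in BRAF organoids in base medium, and Mlx was lower (-1.23). All 3 were called.

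In BRAF organoids, 0 of 77 ribosomal protein genes were called between media (6 at an unadjusted p under 0.05), with a median of -0.32, while 16 of the 98 other biogenesis factors fell, with a median of -0.68, and 8 of the 42 members, with a median of -0.93. Of all genes, 0.583% fell. The difference between these lists was not tested. Compared with EV organoids in base medium, 74 ribosomal protein genes were higher and 0 lower (median 1.17), led by Rpl4 and Rps21 (1.56), and 59 other factors were higher and 4 lower (median 0.78). The 4 lower ones were Sbds (-1.22), Noc3l (-0.80), Senp3 (-0.42) and Exosc2 (-0.36). Of the polymerase lists, 3 of 11 further polymerase I genes and 3 of 11 polymerase III subunits were higher. In that comparison 17.8% of all genes were higher. In selected organoids in base medium, 76 of 77 ribosomal protein genes (median 1.44) and 80 of 98 other factors (median 1.25) were higher than in EV organoids, while Sbds (-1.97), Zfp622 (-1.31), Noc3l (-1.08) and Exosc2 (-0.42) were lower. Of all genes, 25.0% were higher. Against BRAF organoids, where 4.66% of all genes were higher, 0 ribosomal protein genes were called (7 at an unadjusted p under 0.05, median 0.30). Of the other factors, 19 were higher and 1, Zfp622 (-0.83), lower. The 4 with the smallest adjusted p were Znhit3 (1.11), Tsr2 (2.32), Nol11 (0.89) and Pelp1 (1.11).

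**Figure D4:**
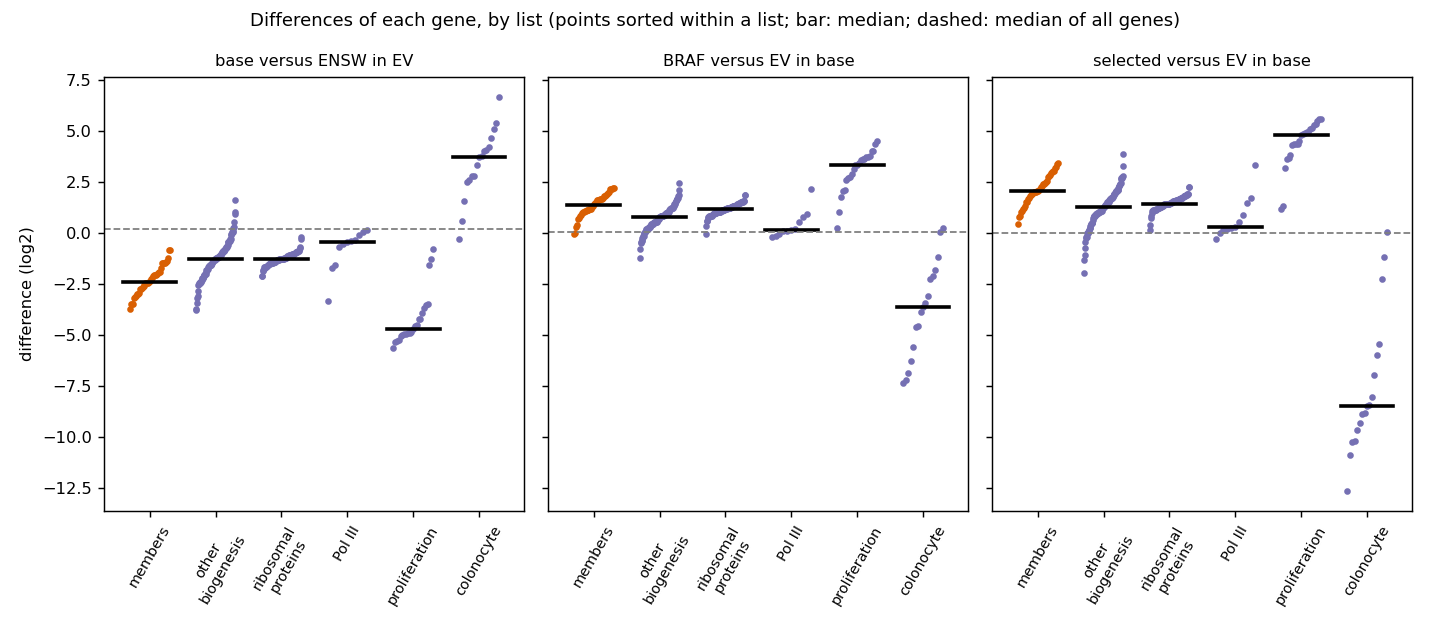
Each point is the fitted difference (log2) of 1 gene, sorted within its list, in 3 comparisons, the bars are list medians and the dashed line is the median of all genes. Members have medians of -2.38, 1.38 and 2.07 in the 3 panels, the proliferation markers move the same way (-4.72, 3.34 and 4.79), and the colonocyte markers move the other way (3.69, -3.64 and -8.48).

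Across the members, the EV difference and the BRAF difference between media correlated at r = 0.709, and the EV and wild-type differences at r = 0.907, over 42 genes, which share arrays and are not independent replicates. Where 14 members had several probes that passed the filter, all probes of each gene had the same sign in the EV and BRAF media comparisons and in base medium between selected organoids and either other type. They did in 13 of 14 in base medium for BRAF against EV organoids, and the exception was Pes1, with -0.03 and 0.88.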

How the data were processed

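Cy3-labelled RNA was measured on Agilent arrays, and the deposited intensity files came from Feature Extraction 10.7.3.1, per the file headers, with probe positions on mm9. The authors' deposited table holds log2 values and served as an alternative, and the submitters' processing notes name limma. From the processed intensity, log2 minus the 75th percentile of each array was taken. Spots that were controls or carried an outlier mark (2747) were dropped, probes had to be well above background on at least 3 of 18 arrays (26827 of 39429 probes), and the brightest probe stood for a gene. limma 3.58.1 in R 4.3.3 fitted the 6 groups of 3 arrays together (12 residual degrees of freedom, 21424 genes) with Benjamini-Hochberg adjustment. The fit was also run on simulated data. These had independent noise on each array, so they cannot speak for arrays of a culture that deviate together. 25 values of tested genes were missing and were not imputed. The number of arrays limits the precision.

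The fit had no line term. Each line was profiled in both media, per the labels. Same-numbered arrays of the 2 media deviated together in each type (lowest correlation 0.42). Same-numbered selected and BRAF arrays did so more weakly (lowest 0.16 in ENSW and 0.18 in base medium). For EV and BRAF lines 1, 2 and 3 in ENSW medium the correlations were 0.05, 0.21 and 0.15. The lowest for EV and BRAF in base medium was -0.01. For EV and selected arrays the lowest were -0.08 in ENSW and -0.04 in base medium. Correlations this weak cannot settle whether a number pairs lines of different types. The alternatives were normexp, quantile and median scaling, the authors' values, other filters, the mean of probes, line, culture and slide blocks, and leaving out each array. Per-array values are given for 19 members picked for their roles, and differences for at most the 8 largest called members per direction, every member against the majority, the 6 members with the smallest p in tests of the response, and up to 4 called genes of other lists. Genes singled out beyond this, such as those at either end of a range or those near the threshold, were chosen after their values were seen. The members and lists were chosen with earlier results of these data known.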

Additional observations from a re-analysis of the deposited data

Results flagged for a closer look

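The tests of a difference between types in the response to base medium gave the following members, whose values are log2 differences of differences from limma over 3 lines per type. Between BRAF and EV organoids these were Fbl at 1.94 (adjusted p 0.0235), Emg1 at 1.31 (0.0239), Nolc1 at 2.02 (0.0247), Polr1a at 1.78 (0.0334), Grwd1 at 2.13 (0.0368) and Rrp12 at 1.59 (0.0436), which was 0.54 (0.323) with normexp background correction. Between selected and EV organoids they were Emg1 at 2.19 (adjusted p 0.000298), Fbl at 2.99 (0.000344), Nolc1 at 3.18 (0.000344), Nop2 at 1.81 (0.000524), Gar1 at 3.41 (0.000578) and Grwd1 at 3.36 (0.000580). Groups held 3 arrays, too few to test for single arrays far from the others.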

How the results depend on the processing

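The members tested (41 with the strict filter, 42 otherwise) kept a negative difference between media in EV organoids and a positive one between selected and EV organoids in base medium under every alternative run. Leaving out 1 array at a time gave 41 to 42 calls for the medium in EV organoids, 34 to 39 for BRAF against EV in base medium, 40 to 42 for selected against EV in base medium and 39 to 41 for the response of selected against EV organoids, and 0 for the medium in selected organoids, for both BRAF comparisons in ENSW medium and for the response of selected against BRAF organoids. It gave 0 to 27 calls for the medium in BRAF organoids, 0 to 3 for selected against EV in ENSW medium, 0 to 18 for selected against BRAF in base medium and 0 to 27 for the response of BRAF against EV organoids.

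For the medium in BRAF organoids the 8 calls became 19 with normexp, 26 with the authors' deposited values, 5 with no filter, 16 with the strict filter, 17 with the line as replicate block, 40 with the culture and 18 with the slide as random block. For selected against EV in ENSW medium the 2 calls became 1 with quantile scaling, no filter, the line as replicate block or the culture block, and 0 with the slide as random block. For selected against BRAF in base medium the 12 calls became 19 with the authors' values, 6 with the culture block and 2 with the slide as fixed block. For the response of BRAF against EV organoids the 11 calls became 19 with normexp, 5 with median centring, 4 with no filter, 18 with the strict filter, 22 with the replicate block, 38 with the culture block, 23 with the slide as random block and 0 with the slide as fixed block. For the response of selected against BRAF organoids the 0 calls became 6 with the culture block. The cause of these shifts was not tested. Shares of all genes called are given for the main fit only. The counts under other settings, and with 1 array left out, therefore describe the dependence on processing and not the members. The replicate block moved no other count of calls by over 1.5 times.

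The median of the members between selected and EV organoids in ENSW medium was -0.07, ran from -0.17 to 0.03 with 1 array left out, and was above 0 (0.0334) without EV line 2 in ENSW medium. Pes1 in base medium turned from -0.03 to 0.43 for BRAF against EV organoids with the mean of probes. With normexp the median fall in EV organoids was -1.90. Median centring shifted the median of all genes by -0.16 for the medium in EV organoids, by -0.18 for selected against EV in ENSW medium and by 0.22 for the response of selected against EV organoids, and with it the share of higher genes among all called genes moved from 55.6% to 44.2%, from 62.9% to 31.6% and from 56.8% to 72.8%. The slide as a fixed block could not be fitted for EV against the other types.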
